A study of Mus musculus with 14 samples.

Results

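The duodenal mucosa of mice 3 h after the beginning of a high-fat (HF) meal was set against the mucosa of mice in the fasting condition, gene by gene. The 2 arrays labelled HF3h and the 2 labelled Fasting entered this comparison, 4 of the 14 arrays of the series, with all 45037 probe sets that were not Affymetrix controls. All mice were male C57BL6, 12 weeks old at purchase, and had eaten a low-fat (LF) diet (10% of calories from fat) before they were fasted for 12 h in the dark phase. HF3h mice then had free access to a diet with 60% of calories from fat until they were sacrificed, and fasting mice had no meal. A pair of further pools served for direct comparisons, LF3h (sampled at 3 h of LF feeding) and HF1h (sampled at 1 h of HF feeding). Each pool combined RNA from 20 mice and was hybridised to 2 arrays, labelled as technical replicates. The p-values therefore cover array error only, no biological replicate was measured, and how far 1 pool lies from another pool of the same condition is not known. The authors report that mice of all groups were sacrificed over the same morning hours, with fasting or meal start adjusted to the group. Mice left without food for the same 3 h were not analysed here, so the meal and the hours since the fast began cannot be told apart.

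The duodenum receives the meal from the stomach together with bile and pancreatic juice. Its enterocytes take up fatty acids and monoglycerides released by pancreatic lipase, rebuild them into triglycerides in the endoplasmic reticulum (ER), hold part of them for a time in cytosolic lipid droplets and export the rest as chylomicrons. Fatty acids are also ligands of PPARα, a nuclear receptor that drives genes of fatty acid handling. During fasting, FOXO factors and glucocorticoids keep genes of glucose production and stress resistance active, and insulin released after a meal silences many FOXO targets.

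Array values were log2 intensities after the authors' Robust Multiarray Analysis (RMA). Between the arrays of a pool, values correlated at 0.9966 for HF3h and 0.9971 for Fasting, and the median SD over probe sets was 0.073 and 0.069. The difference between 3' and 5' control probe sets, read for RNA quality, was 0.429 at HF3h and 0.488 in the fasting condition for beta-actin, and 0.015 and 0.081 for Gapdh. A gene was represented by the probe set with the highest mean, and called higher or lower at an adjusted p under 0.05 in limma's moderated test. It was called modulated where the change also reached 2-fold. Errors written with ± beside a fold change are standard errors. Where either pool had a mean log2 value under 6, close to background, the fold is given as a lower bound. Of 18194 genes, 540 were higher (2.97%) and 673 lower (3.7%) at HF3h than in the fasting condition, and the median log2 fold change of all genes was -0.00. Modulated genes numbered 59 higher (0.324%) and 29 lower (0.159%). Counted as probe sets, whether or not these name 1 gene, 111 were modulated upwards and 66 downwards. The plot of all genes shows where these lay on the intensity scale.

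**Figure D1:**
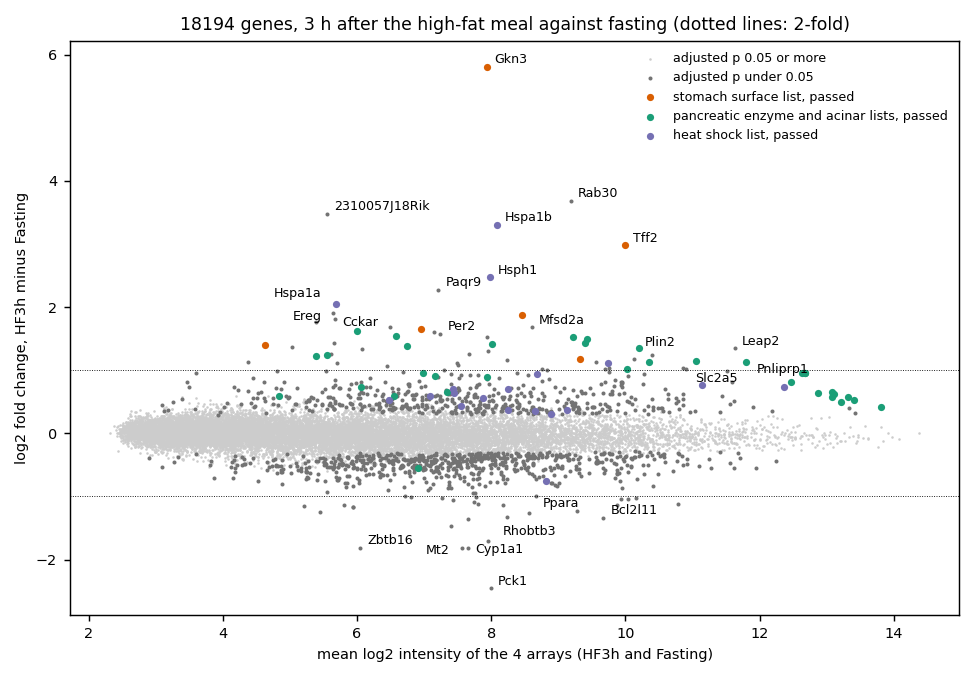
Each point is 1 of 18194 genes. The x axis gives its mean log2 intensity over the 2 HF3h and 2 Fasting arrays, and the y axis its log2 fold change, HF3h minus Fasting. Coloured points are called genes of the stomach surface (orange), pancreatic (green) and heat shock (violet) lists. Gkn3 stands highest at 5.81 and Pck1 lowest at -2.46.

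The mucosal identity of the samples was checked first. Of 15 enterocyte markers measured, 1 was higher and none lower, the median change was -0.02, and their summed level was 16.74 and 16.72 on the HF3h arrays against 16.70 and 16.71 on the fasting arrays. The marker that was called was Fabp1, the liver-type fatty acid-binding protein (log2 fold change 0.33, adjusted p = 0.025). It lost the call without any 1 of the 4 arrays (adjusted p = 0.094 to 0.17). Paneth cell markers were lower in 4 of 8 (median -0.28; 2 to 3 with any 1 of the 4 arrays left out), among them Lyz1, the Paneth cell lysozyme, which fell by 0.48 ± 0.08 on the log2 scale (adjusted p = 0.0026). In bulk mucosa, fewer cells of a type and less RNA per cell cannot be told apart. Markers of smooth muscle, T cells, endothelium and enteroendocrine cells gave no call in either direction. Of these, 9 of 13, 2 of 11, 6 of 8 and 6 of 17 were under 6 in both pools, where a change is hard to measure.

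Genes of the stomach surface list held the largest rise, although not all of them rose. Gkn3, a gastrokine secreted by gastric mucous cells, read 10.78 and 10.91 on the HF3h arrays, against 4.77 and 5.31 on the fasting arrays. The arrays of the 2 pools did not overlap, and the rise was at least 56.0-fold (log2 fold change 5.81 ± 0.17, adjusted p = 1.6e-10). Tff2, a trefoil peptide of gastric mucous neck cells and Brunner glands, read 11.52 and 11.45 at HF3h against 8.58 and 8.44 in the fasting condition, a 7.89-fold rise. Of 6 Brunner gland markers measured, Tff2 was the only 1 called (median 0.03), and 3 were under 6 in both pools. Gkn2, Gkn1, Tff1 and Anxa10 also rose, by 1.88, 1.65, 1.18 and at least 1.40 on the log2 scale. The rise of Anxa10 was on 1 of its 2 probe sets (0.02 on the other). Thus 6 of the 9 stomach surface markers measured were higher (median 1.40), and their summed level was 12.72 and 12.71 at HF3h against 10.23 and 10.18 in the fasting condition. Muc5ac, the main gastric surface mucin, did not pass (4.65 at HF3h against 4.74 in the fasting condition), nor did Vsig1 and Psca. None of 7 parietal and chief cell genes passed, and 6 of these 7 were under 6 in both pools. These transcripts did not follow the time after the meal in 1 direction. Against the fasting pool, Gkn3 stood 6.57 higher at HF30min, 0.75 at HF1h and 5.81 at HF3h on the log2 scale, and 0.24 at LF3h. The gene 2310057J18Rik, known by its clone name only, read 7.27 and 7.31 at HF3h against 3.81 and 3.81 in the fasting condition, and it too was high at HF30min (4.85) and near the fasting level at HF1h (0.15).

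Pancreatic transcripts rose as a group. All 17 pancreatic enzyme genes measured were higher at HF3h (median 0.81), as were 16 of 24 genes of a further acinar list (median 0.82, 1 lower). Rnase1 is on both lists and is counted in each. Pla2g1b, the pancreatic phospholipase A2, read 10.14 and 10.07 at HF3h against 8.67 and 8.68 in the fasting condition, a 2.69-fold rise on the brightest of its 4 probe sets (range -0.07 to 1.43). Pnliprp1, a lipase-related protein, rose 2.18-fold and Cuzd1, a zymogen granule membrane protein, 2.80-fold. Ptf1a, the acinar transcription factor, rose at least 2.33-fold, from a level near background. The summed level of the enzymes was 17.00 and 16.99 at HF3h, against 16.34 and 16.34 in the fasting condition. Their median change from the fasting pool was -0.89 at HF30min, 0.62 at HF1h and -0.25 at LF3h. Ins2, 1 of the mouse insulin genes, read 10.14 and 10.13 at HF3h against 9.0 and 8.99 in the fasting condition, and 6.81 and 7.07 at LF3h. Of 12 islet genes, 3 rose. The receptor Cckar, through which cholecystokinin acts on acinar cells, was on none of the lists and rose at least 3.52-fold (6.62 and 6.54 at HF3h against 4.65 and 4.89). Nucb2, which encodes the precursor of nesfatin-1, rose at least 3.21-fold (7.43 and 7.23 at HF3h against 5.53 and 5.77). Against the fasting pool, Cckar stood at -0.74 at HF30min and 1.01 at HF1h, and Nucb2 at -0.22 and 0.94. Probe sets of the trypsin and kallikrein families can detect related genes, so single members such as Prss3 (at least 3.08-fold) and Klk1 (2.18-fold) are uncertain.

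Of the 59 genes modulated upwards, 22 (37.3%) stood on the stomach, Brunner gland, pancreas or adipocyte lists, and none of the 29 modulated downwards did. Without genes of those lists, 146 of 177 modulated probe sets were left. These include probe sets that name no single gene, 14 higher and 12 lower, which could not be matched to a list. The adipocyte list had 4 higher and 1 lower of 13. Adipoq, which encodes adiponectin, read 4.07 and 4.09 at HF3h against 3.15 and 3.09 in the fasting condition, values near background, while Lep and Plin4 did not pass. Cidec, Fabp4 and Lpl of that list are also expressed in other tissues. What part such transcripts had in the results below was not tested, and their values at LF3h and HF1h are given where they bear on a group.

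Rab30, which encodes a small GTPase of the Golgi apparatus, was the gene with the largest rise outside those lists. It read 11.09 and 10.97 on the HF3h arrays and 7.23 and 7.46 on the fasting arrays, a 12.8-fold rise (log2 fold change 3.68 ± 0.10, adjusted p = 1e-10). Its second probe set rose by 1.13. After the HF meal it climbed in each pool, by 0.68 at HF30min, 1.53 at HF1h and 3.68 at HF3h. Paqr9, of the progestin and adipoQ receptor family, read 8.26 and 8.43 at HF3h and 6.02 and 6.13 in the fasting condition, a 4.83-fold rise. Against the fasting pool, it stood at -0.06 at HF30min and 0.06 at HF1h. Ereg, which encodes the EGF receptor ligand epiregulin, rose at least 3.76-fold (6.66 and 6.53 at HF3h against 4.66 and 4.70) and was 1.39 above the fasting level already at HF30min. Leap2, the liver-expressed antimicrobial peptide that antagonises the ghrelin receptor, read 12.31 and 12.30 at HF3h against 10.89 and 11.02 in the fasting condition, a 2.54-fold rise.

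**Figure D2:**
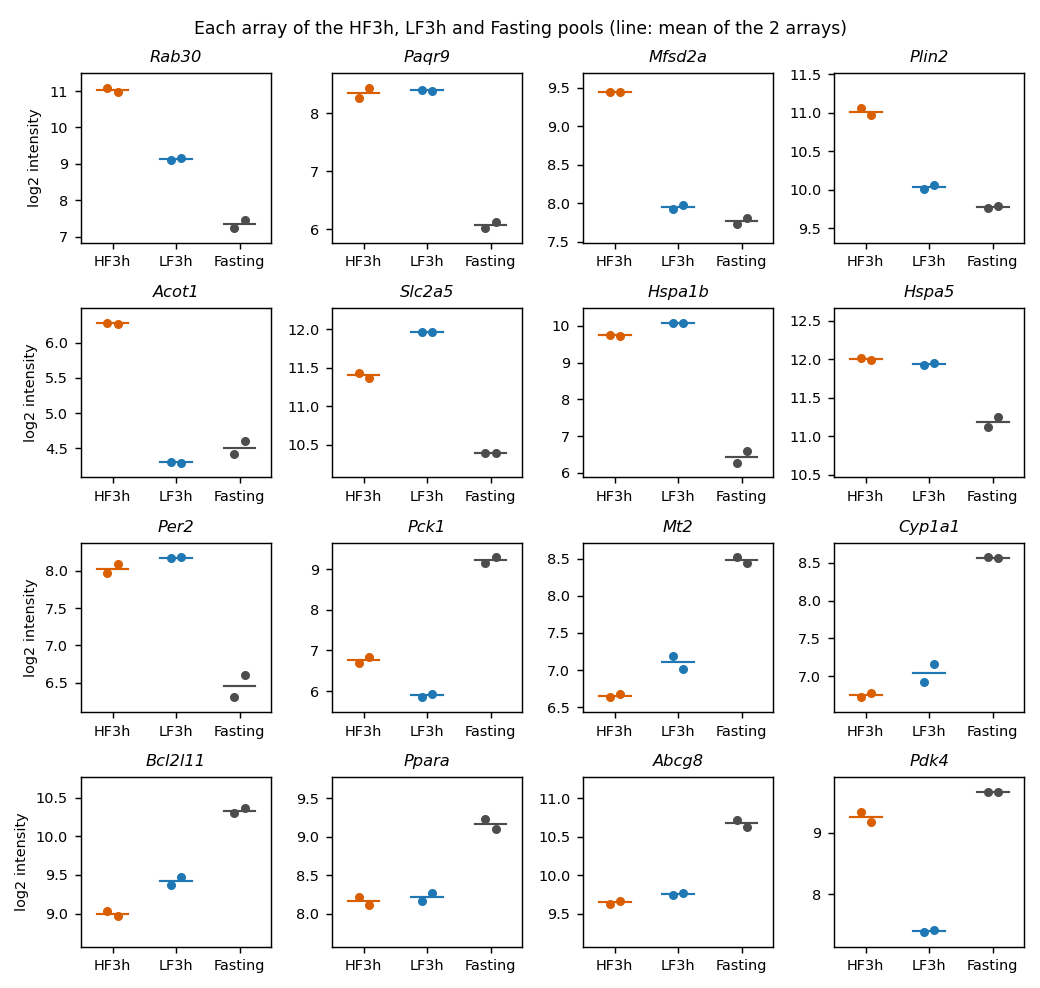
Each dot is 1 array, each line marks a pool mean, and the y axis is log2 intensity, with its own range in each panel. HF3h is on the left, LF3h in the middle and Fasting on the right. Rab30 lies at 11.09 and 10.97 at HF3h against 7.23 and 7.46 in the fasting condition, with LF3h in between at 9.12 and 9.16, while Hspa1b and Paqr9 lie near the same level after both meals.

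Many cytosolic chaperones were higher at HF3h. Of 37 heat shock proteins and co-chaperones, 18 were higher (48.6%, against 2.97% of all genes) and 1 lower, with a median of 0.31. This and the other lists were written with earlier results of these data known. Their shares beside those of all genes are therefore descriptions and test nothing. Hspa1b, an inducible Hsp70, read 9.76 and 9.72 at HF3h against 6.27 and 6.60 in the fasting condition, a 9.90-fold rise (3.31 ± 0.12, adjusted p = 1.9e-09). Hspa1a, its near-identical neighbour, rose at least 4.15-fold, and the probe sets of these 2 genes can each detect both. Hsph1, the Hsp110 that exchanges nucleotide on Hsp70, read 9.26 and 9.19 at HF3h against 6.67 and 6.84, a 5.55-fold rise. Hsp90aa1, the inducible cytosolic Hsp90, rose 2.16-fold, although its 5 probe sets ranged from 0.12 to 1.38. Smaller rises were found for Chordc1 (0.94), Dnaja1 (0.76), Hspa8 (0.74), Hspb1 (0.70) and Bag3 (0.64). The gene that fell was Fkbp5, a co-chaperone of steroid receptors that glucocorticoids induce, by 0.76 (0.01 on the highest of its 3 probe sets). Of the cytosolic chaperonin, Cct8 rose by 0.43. With any 1 of the 4 arrays left out, 11 to 14 of the list were higher. At LF3h the stomach and pancreatic enzyme lists had medians of -0.19 and -0.25 over the fasting pool and the heat shock list 0.41. Of the 37 heat shock genes, none was higher and 1 was lower at HF3h than at LF3h. The part of gland transcripts in this list was not tested.

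ER chaperones and genes of the unfolded protein response, the programme that expands the folding capacity of the ER, had 13 of 34 higher (38.2%), none lower and a median of 0.27. Creld2, an ER stress-inducible protein, read 8.83 and 8.81 at HF3h against 7.65 and 7.64 in the fasting condition, a 2.25-fold rise (adjusted p = 1.3e-06). Hspa5, the ER Hsp70 BiP, read 12.01 and 11.99 against 11.12 and 11.25, a 1.76-fold rise. Manf rose by 0.76 and Sdf2l1 by 0.61. Hsp90b1, the ER Hsp90, rose by 0.62 and lost the call without the first fasting array (adjusted p = 0.053). Of the sensors, Eif2ak3 rose by 0.44, while Atf6 (-0.11) and Ern1 (0.04) did not pass, nor did Xbp1 (0.05). With any 1 of the 4 arrays left out, 6 to 8 members were higher, and 21 were with a variance prior that follows intensity. Acinar cells are rich in ER chaperones, and the pancreatic enzymes rose beside this list. At LF3h, where the enzymes had a median of -0.25, Hspa5 read 11.92 and 11.95 and Manf 10.18 and 10.18, and no difference between HF3h and LF3h was called for either (adjusted p = 0.76 and 0.92). Creld2 (0.35, adjusted p = 0.045) and Sel1l (0.46, adjusted p = 0.024), of ER-associated degradation, were higher at HF3h than at LF3h, 2 of the 34, and none was lower. The part of acinar transcripts in this list was not tested.

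The ATF4 list, genes that cells switch on when amino acids are short or the ER is stressed, had 10 of 30 higher (33.3%), none lower and a median of 0.23. Chac1, a glutathione-degrading enzyme, read 6.18 and 6.57 at HF3h against 5.19 and 4.69, a rise of at least 2.71-fold. Asns, asparagine synthetase, rose 1.58-fold (7.70 and 7.74 at HF3h against 7.05 and 7.07). Trib3 rose by 0.74 and Aldh1l2 by 0.72, both with a pool under 6, and Atf4 itself by 0.42. The list held 6 to 8 higher genes with any 1 of the 4 arrays left out. None of 18 aminoacyl-tRNA synthetases, many of which ATF4 is known to drive, passed (median 0.07).

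The sequences before the starts of these genes were read because all called members of both lists were higher. In the RefSeq table for GRCm38.p6, 250 bases before the start were searched on both strands. The ER stress response element, to which ATF6 binds with NF-Y, was found in 9 of the 28 ER list genes that have a promoter there, and in 35 of 27018 genes in all (0.13%). Those 9 were Hspa5, Hsp90b1, Calr, Canx, Pdia6, Dnajc3, Creld2, Syvn1 and Derl3. Of the called ER list genes, 10 have a promoter there, and 5 of these held the element. The amino acid response element, searched as TGATGNAAN, was found in 8 of 26 ATF4 list genes and in 3.89% of all genes. Of the called ATF4 list genes, 8 have a promoter there, and 4 of these held it. A heat shock element of 3 units was found in 3 of 32 heat shock list genes (0.514% of all genes), of which Hspe1 was called. The FOXO element GTAAACA was found in 3 of 32 genes of the FOXO list and in 3.54% of all genes. Of the called FOXO list genes, 9 have a promoter there, and 2 of these held it: Bcl2l11, which fell, and Txnip, which rose. The promoters of the ER and ATF4 genes with the largest rises among those with a match follow, 5′ to 3′, with the matching letters in capitals, as a description of these windows only.
Creld2, chr15:88819396-88819645, plus strand: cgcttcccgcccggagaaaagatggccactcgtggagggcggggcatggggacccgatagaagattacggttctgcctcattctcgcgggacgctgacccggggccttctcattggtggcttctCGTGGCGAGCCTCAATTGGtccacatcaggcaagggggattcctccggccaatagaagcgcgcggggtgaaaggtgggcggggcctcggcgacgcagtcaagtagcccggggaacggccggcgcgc
Hspa5, chr2:34771840-34772089, plus strand: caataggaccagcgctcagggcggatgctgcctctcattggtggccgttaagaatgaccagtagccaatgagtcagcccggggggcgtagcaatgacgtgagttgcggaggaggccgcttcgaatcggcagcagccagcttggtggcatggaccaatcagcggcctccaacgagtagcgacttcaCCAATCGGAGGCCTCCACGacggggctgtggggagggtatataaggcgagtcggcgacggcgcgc
Chac1, chr2:119350992-119351241, plus strand: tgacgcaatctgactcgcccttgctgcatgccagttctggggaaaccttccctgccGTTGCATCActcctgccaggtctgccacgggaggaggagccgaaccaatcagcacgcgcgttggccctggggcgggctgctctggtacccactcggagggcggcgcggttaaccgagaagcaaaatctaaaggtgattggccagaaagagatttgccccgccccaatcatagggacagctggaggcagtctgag
Asns, chr6:7693210-7693459, minus strand: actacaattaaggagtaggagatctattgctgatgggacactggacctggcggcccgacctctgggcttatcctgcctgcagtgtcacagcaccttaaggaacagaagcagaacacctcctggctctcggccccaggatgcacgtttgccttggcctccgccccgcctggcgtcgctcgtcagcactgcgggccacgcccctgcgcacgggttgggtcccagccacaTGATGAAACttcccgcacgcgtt

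**Figure D3:**
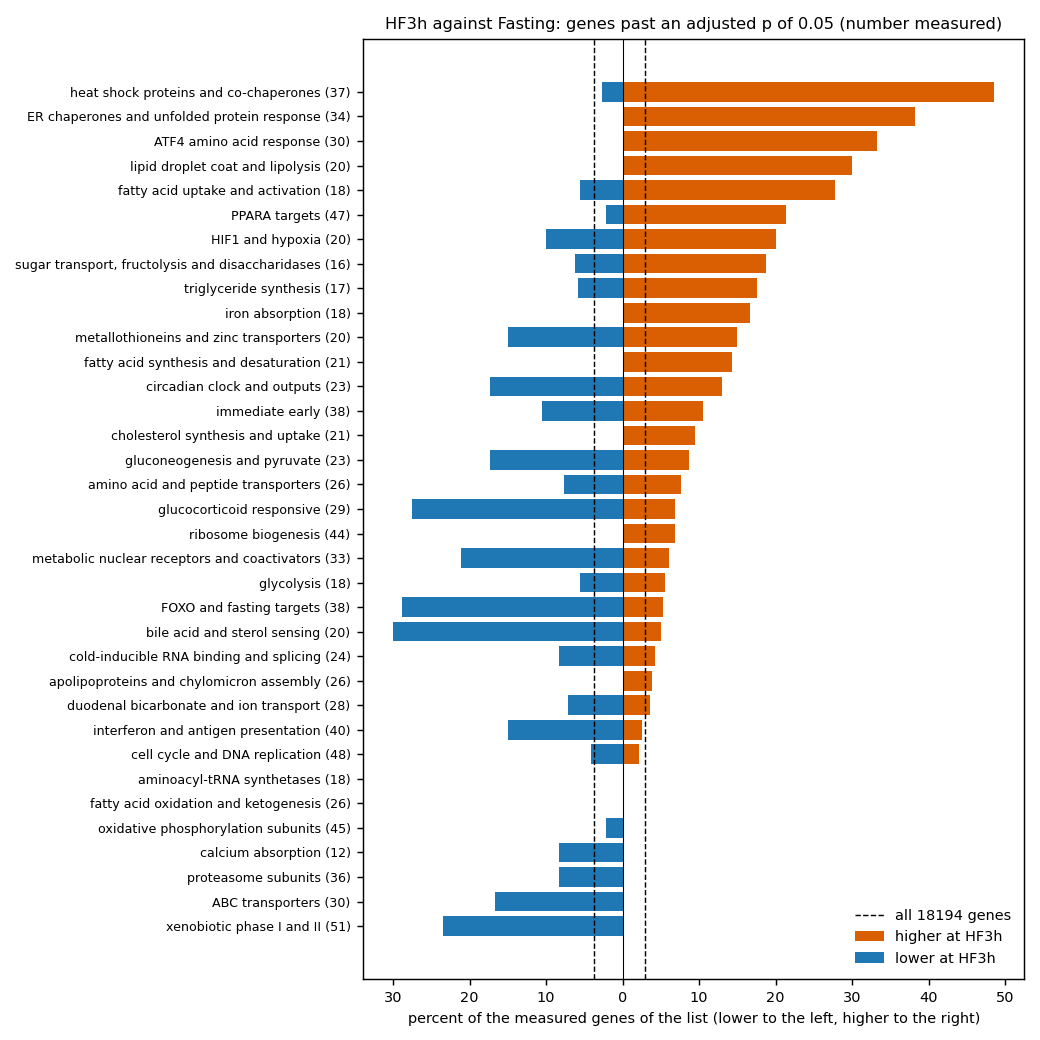
For each gene list, the bar to the right gives the percent of its measured genes that were higher at HF3h and the bar to the left the percent that were lower (adjusted p under 0.05). Dashed lines mark all 18194 genes, at 2.97% higher and 3.7% lower. The heat shock list reaches 48.6% higher, and the list of bile acid and sterol sensing 30.0% lower.

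Some genes of lipid droplets and acyl-CoA handling rose. Plin2, the droplet coat protein of enterocytes, read 11.06 and 10.97 at HF3h against 9.76 and 9.79 in the fasting condition, a 2.36-fold rise (1.24 ± 0.09, adjusted p = 1.5e-06). Cidec, which fuses droplets, rose 2.01-fold, and G0s2, an inhibitor of the lipase ATGL, at least 2.59-fold. Of 20 droplet and lipolysis genes, 6 were higher (30.0%) and none lower, with a median of 0.25. Pnpla2, which encodes ATGL, did not pass (-0.31). Mfsd2a, a transporter of lysophosphatidylcholine, read 9.44 and 9.45 against 7.73 and 7.81, a 3.20-fold rise. Acot1, a cytosolic thioesterase that releases fatty acids from acyl-CoA, read 6.28 and 6.27 against 4.42 and 4.60, at least 3.39-fold higher, and its mitochondrial relative Acot2 rose by 0.87.

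Of 47 PPARα target genes, 10 were higher (21.3%) and 1 lower, with a median of 0.09. Acot1, G0s2, Plin2 and Cidec led it, so 3 of its 4 largest rises are also those of the droplet list. Pex11a, of peroxisome division, rose by 0.50 and Vnn1, a pantetheinase, by 0.36. Of 26 genes of fatty acid oxidation and ketogenesis, none passed in either direction (median -0.06), among them Cpt1a, the carnitine palmitoyltransferase that admits fatty acids to mitochondria (0.20), and Acadm (-0.11). With probe sets near background left out 3 of 25 were called, all higher, and with a prior that follows intensity 2 were higher and 2 lower. Ppara itself read 8.22 and 8.11 at HF3h against 9.23 and 9.09 in the fasting condition, a 2.0-fold fall (adjusted p = 8.8e-06), and its 3 probe sets fell by between 1.00 and 1.14. Its coactivator Ppargc1a did not pass (-0.21, adjusted p = 0.19), but was called in a fit limited to probe sets above background (adjusted p = 0.03).

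In triglyceride synthesis, 3 of 17 genes were higher and 1 lower (median -0.09). Agpat2, which acylates lysophosphatidic acid, rose 1.54-fold and Dgat2, which makes triglyceride from diacylglycerol, 1.51-fold, while the phosphatidate phosphatase Lpin2 fell by 0.58. Among genes of fatty acid uptake and activation, 5 of 18 were higher and 1 lower (2 to 3 higher with any 1 of the 4 arrays left out). Acsl3, a droplet-associated acyl-CoA synthetase, rose by 0.79, although its 3 probe sets ranged from -0.00 to 0.79. Cd36 did not pass (0.14). Apolipoproteins and the chylomicron machinery had 1 called gene of 26, the COPII coat component Sec24d (0.43, lost without the first fasting or the first HF3h array, adjusted p = 0.053 and 0.055), and a median of 0.14. Apoa1 (0.01), Apoa4 (0.11), Apob (0.22) and Mttp (0.25) did not pass. This count rested on the variance model: 14 of the 26 were called, all higher, with a prior that follows intensity, and 12 of 24 with probe sets near background left out. For lipogenesis, Srebf1, the transcription factor of fatty acid synthesis, rose 1.59-fold (10.12 and 10.15 at HF3h against 9.49 and 9.45), and Scd1, the stearoyl-CoA desaturase, rose by 0.97 on 1 probe set and by 0.08 on the other. Of 21 genes of cholesterol synthesis and uptake, Insig1, which retains the SREBP precursors in the ER, rose 2.02-fold and Hmgcs1 by 0.34, a call that was lost without any 1 of the 4 arrays (adjusted p = 0.057 to 0.19).

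**Figure D4:**
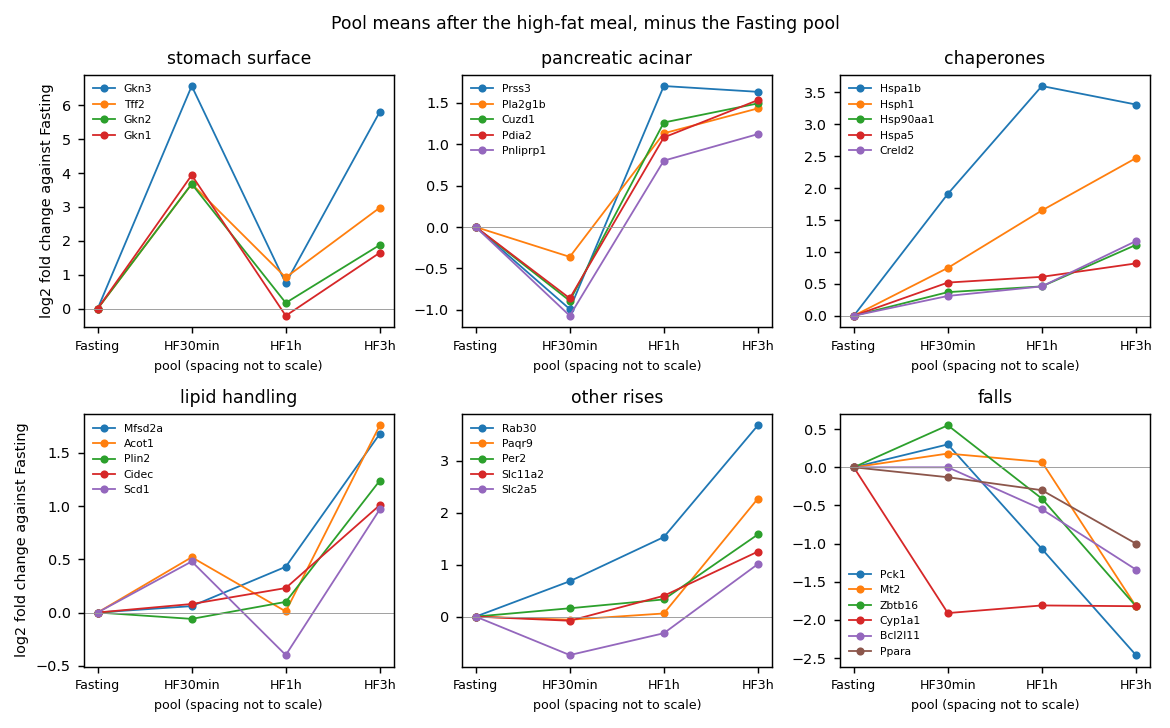
Each line is 1 gene, and the y axis gives its pool mean minus the mean of the Fasting pool on the log2 scale, for Fasting, HF30min, HF1h and HF3h in order along the x axis. Gkn3 stands at 6.57, 0.75 and 5.81, and Cyp1a1 at -1.91, -1.81 and -1.82, while Plin2 (-0.06, 0.10 and 1.24) and Paqr9 (-0.06, 0.06 and 2.27) lie near 0 until HF1h and high at HF3h.

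Several genes that are active in the fasted state fell. Pck1, phosphoenolpyruvate carboxykinase of gluconeogenesis, read 6.69 and 6.84 at HF3h against 9.15 and 9.30 in the fasting condition, the largest fall of all genes (5.49-fold, -2.46 ± 0.10, adjusted p = 9.7e-09). Its other 2 probe sets were less changed, the highest at 0.06. G6pc, glucose-6-phosphatase, went the other way and rose by 0.46. Of 38 FOXO and fasting targets, 11 were lower (28.9%, against 3.7% of all genes) and 2 higher, with a median of -0.17. Bcl2l11, the pro-apoptotic protein Bim, read 9.03 and 8.97 against 10.30 and 10.37, a 2.53-fold fall, and Sesn1, a stress-induced inhibitor of mTORC1, fell 2.35-fold. Cited2 fell 2.40-fold, Irs2 by 0.67 and Fbxo32 by 0.74. Foxo1 was at 8.23 and 8.28 at HF3h and at 8.26 and 8.38 in the fasting condition, which overlapped (adjusted p = 0.84). The list had 7 to 9 lower genes with any 1 of the 4 arrays left out. Pdk4, the kinase that blocks pyruvate dehydrogenase in fasting, fell by 0.40 (9.34 and 9.18 against 9.66 and 9.66), and the call was lost without either fasting array or the second HF3h array (adjusted p = 0.068 to 0.11).

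Glucocorticoid-responsive genes were lower in 8 of 29 (27.6%) and higher in 2, with a median of -0.18. Zbtb16, the transcription factor PLZF, read 5.45 and 4.83 against 6.88 and 7.03, a fall of at least 3.53-fold, with its 3 probe sets between -1.82 and -0.26. Mt2, a metallothionein induced by zinc and glucocorticoids, read 6.63 and 6.68 against 8.52 and 8.44, a 3.54-fold fall, while Mt1 fell by 0.37 (0.06 on its second probe set). Klf9 fell by 0.50, although its 7 probe sets ranged from -0.64 to 0.37. The list had 5 to 7 lower genes with any 1 of the 4 arrays left out. Mfsd2a, which rose, was also on it, and Tsc22d3, a gene that glucocorticoids induce in most tissues, did not pass (-0.14). Among genes of the Slc30 transporter family, Slc30a10 rose by 0.65 and Slc30a1 by 0.55, and Slc30a4 fell by 0.66.

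Other large falls were on none of the lists above. Rhobtb3, a Golgi-associated ATPase, read 7.07 and 7.13 against 8.80 and 8.81, a 3.26-fold fall, with its 5 probe sets between -1.70 and -0.33. Crebrf, a regulator of CREB3 linked to energy storage, fell 2.77-fold (6.64 and 6.69 at HF3h against 8.11 and 8.16). Fut4, a fucosyltransferase, fell 2.55-fold and Ypel2 2.49-fold. Erbb3, a receptor of the EGF receptor family, fell 2.16-fold (10.22 and 10.23 against 11.31 and 11.37), and Gclc, the catalytic subunit that makes glutathione's first intermediate, 2.20-fold. The falls of Spag5, Klhl24, Frat2 and Lmcd1, of at least 2.23-fold to at least 2.38-fold, were measured near background.

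Some genes of detoxification were lower. Cyp1a1, the aryl hydrocarbon receptor target that oxidises aromatic compounds, read 6.72 and 6.78 at HF3h against 8.57 and 8.56, a 3.52-fold fall. It was down by 1.91 already at HF30min and by 1.81 at HF1h, and no difference between HF3h and HF1h was called (adjusted p = 1.0). Of 51 phase I and II enzymes, 12 were lower (23.5%) and none higher, with a median of -0.16. Cyp2c55 fell by 0.68, Gstm3 by 0.52 and Nqo1 by 0.49, while Cyp3a11 (-0.05) and Cyp2b10 (-0.27) did not pass. The count was 4 to 6 with any 1 of the 4 arrays left out, and 24 with a prior that follows intensity. Among ABC transporters, 5 of 30 were lower, and 2 with any 1 of the 4 arrays left out. Abcc2, which exports conjugates across the brush border, read 9.48 and 9.55 against 10.50 and 10.61, a 2.05-fold fall. Abcg8, which with Abcg5 returns absorbed sterols to the lumen, read 9.63 and 9.67 against 10.72 and 10.63, a 2.04-fold fall, and Abcg5 fell by 0.31.

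Nuclear receptors and coactivators were lower in 7 of 33 (21.2%; 3 to 5 with any 1 of the 4 arrays left out) and higher in 2. Beside Ppara, Vdr, the vitamin D receptor, fell 1.78-fold (9.96 and 10.04 against 10.80 and 10.87), Hnf4g by 0.68 and Nr1i2, the pregnane X receptor, by 0.43, the last losing its call without either fasting or the second HF3h array (adjusted p = 0.078 to 0.11). Nr0b2, the corepressor SHP, rose by 0.78 and Hnf4a by 0.33. Bile acid and sterol sensing genes, which include several of these, were lower in 6 of 20 (30.0%); 2 to 3 were with any 1 of the 4 arrays left out. Genes of interferon signalling and antigen presentation were lower in 6 of 40, but in 0 of 40 when the 2 pools were fitted alone and in 12 of 40 with a prior that follows intensity, and no single fall exceeded 0.42.

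Of 23 clock genes, 3 were higher and 4 lower (median -0.19), with 0 to 2 lower when any 1 of the 4 arrays was left out. Per2, a repressor of the clock, read 7.97 and 8.09 at HF3h against 6.30 and 6.60, a 2.99-fold rise (adjusted p = 3.3e-06) with its 3 probe sets between 0.58 and 1.58, and Bhlhe40 rose 1.88-fold. Nr1d2 fell at least 1.73-fold and lost the call without the second fasting or the second HF3h array (adjusted p = 0.061 and 0.057). Arntl (-0.11), Clock (0.10), Dbp (-0.23) and Per1 (-0.41) did not pass. Cirbp, the cold-inducible RNA-binding protein, fell at least 2.19-fold.

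Of 16 genes of sugar transport, fructolysis and disaccharidases, 3 were higher (18.8%) and 1 lower (6.25%), with a median of -0.03. Of 18 iron absorption genes, 3 were higher (16.7%) and none lower, with a median of 0.08. Single transporters of sugar, iron and phosphate follow. Slc2a5, the apical fructose transporter, read 11.44 and 11.37 at HF3h against 10.39 and 10.39, a 2.02-fold rise, after lower values at HF30min (-0.74) and HF1h (-0.32). Slc5a1 (-0.23) and Slc2a2 (0.10), the main glucose carriers, did not pass, and Slc5a4a, a sodium-glucose cotransporter family member, fell 1.65-fold. Slc11a2, the ferrous iron importer DMT1, read 8.34 and 8.26 against 7.01 and 7.09, a 2.38-fold rise, with its 4 probe sets between -0.09 and 1.30. Flvcr1, a haem exporter, rose by 0.80 and Slc20a1, a phosphate transporter, 2.48-fold. Hif1a rose 1.76-fold (10.32 and 10.41 against 9.46 and 9.63), but of 20 HIF1 and hypoxia genes 4 were higher and 2 lower (1 to 2 and 0 to 1 with any 1 of the 4 arrays left out). Slc38a5, a glutamine transporter, rose by at least 1.26, among 26 amino acid and peptide transporters of which 2 were higher and 2 lower. Against the fasting pool, Slc38a5 stood at -0.47 at HF30min, 0.88 at HF1h and -0.35 at LF3h. The medians of the pancreatic enzymes were -0.89, 0.62 and -0.25, and the part of acinar transcripts was not tested. Of 38 immediate early genes, 4 were higher, led by Klf10 (0.93), and 4 lower, led by Junb (-0.54). With any 1 of the 4 arrays left out 2 to 3 were higher and 2 to 3 lower, and with a prior that follows intensity 7 and 9. Few genes were called in other lists. Of 45 subunits of oxidative phosphorylation 1 was lower (2.22%), and 12 were with a prior that follows intensity. Of 36 proteasome subunits 3 were lower (8.33%), and of 44 ribosome biogenesis genes 3 were higher (6.82%). Of 48 cell cycle genes 1 was higher (2.08%) and 2 lower (4.17%). Over all genes, 2.97% were higher and 3.7% lower. In both pools, 25 of the 44 ribosome biogenesis and 32 of the 48 cell cycle genes were under 6. Creb1 did not pass (8.24 and 8.16 against 8.01 and 8.16, adjusted p = 0.59).

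The direct comparison with LF3h asked which of these genes differed between the meals at the same time. Fewer genes did: 217 were higher at HF3h (1.19%) and 184 lower (1.01%), of which 48 (0.264%) and 3 (0.0165%) by at least 2-fold. Of the 48, 29 (60.4%) stood on the stomach, pancreas or adipocyte lists, and the other 19 included Rab30, Ereg, Cckar and Nucb2 beside lipid genes. The 19 also held Klk1b5, Amy1, Tmed11 and Slc38a5 (HF30min against fasting -0.97, -0.88, -0.70 and -0.47, HF1h 0.75, 0.37, 1.13 and 0.88). They also held 2310057J18Rik, Wfdc18 and A2ml1 (HF30min 4.85, 2.01 and 1.79, HF1h 0.15, 0.18 and 0.20). The medians of the pancreatic enzyme list at these times were -0.89 and 0.62, and of the stomach surface list 2.80 and 0.17. What part gland transcripts had in the 19 was not tested. Of the 59 genes modulated upwards against the fasting condition, 48 were higher at HF3h than at LF3h, 3 lower and 8 not called. Of the 29 modulated downwards, 8 were lower, 1 higher and 20 not called. The comparisons share the HF3h arrays, so such counts are not independent of each other.

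Several lipid genes were higher at HF3h than at LF3h. Acot1 read 6.28 and 6.27 at HF3h against 4.30 and 4.30 at LF3h, at least 3.93-fold higher (adjusted p = 4.9e-07). Scd1 and G0s2 were also under 6 at LF3h, and their log2 differences of 1.43 and 1.34 are lower bounds too. Mfsd2a differed by 1.49, Plin2 by 0.98, Srebf1 by 0.78 and Cidec by 0.68. Of the PPARα targets, 13 of 47 were higher at HF3h than at LF3h (27.7%) and none lower (median 0.18), among them Pdk4, at 9.34 and 9.18 against 7.38 and 7.41 at LF3h (1.87, adjusted p = 2.2e-08). Rab30 read 11.09 and 10.97 against 9.12 and 9.16. In the other direction, Arrdc4 (-0.87) and Txnip (-0.39), both glucose-responsive arrestin-like genes, Slc2a5 (-0.56), G6pc (-0.50) and Slc11a2 (-0.50) were lower at HF3h than at LF3h, and of 16 genes of sugar transport and breakdown 5 were lower and none higher. Cited2 (-0.81), Rhobtb3 (-0.73) and Ypel2 (-0.69) had fallen further at HF3h, and Pck1 less far (at least 0.87 higher at HF3h). For Hspa1b, Hsph1, Hspa5, Paqr9, Per2, Ppara, Zbtb16 and Cyp1a1 no difference was called in limma's test, with log2 differences between -0.33 and 0.24.

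**Figure D5:**
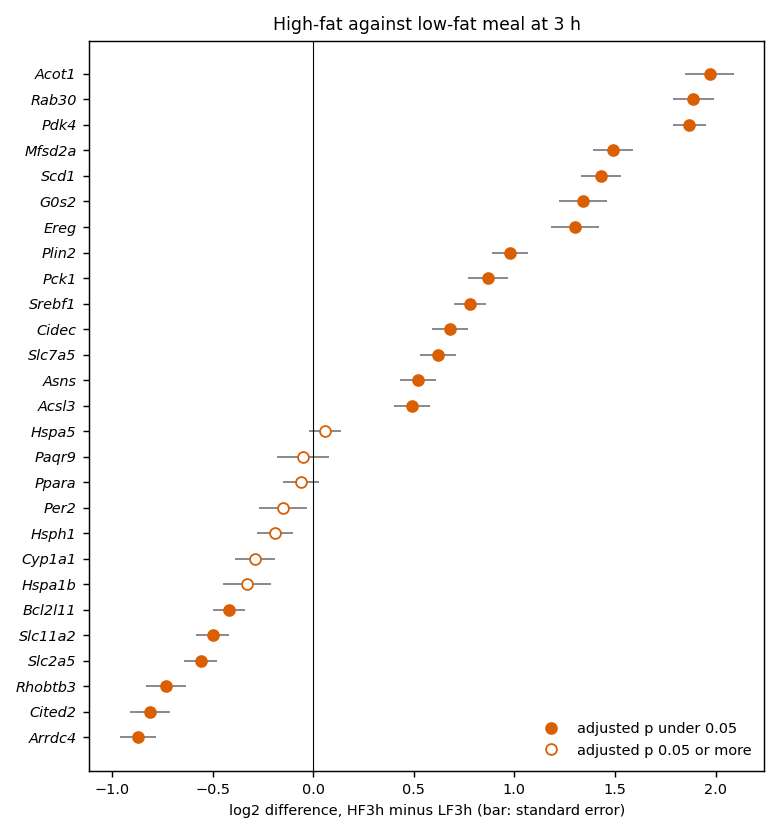
Points give the log2 difference HF3h minus LF3h of 27 genes chosen after their values were seen, without stomach, pancreatic and islet genes, and bars the standard error. Filled points passed an adjusted p of 0.05. Rab30 lies at 1.89 and Arrdc4 at -0.87, Acot1 at 1.97 is a lower bound, as are Scd1, G0s2, Ereg and Pck1, and chaperones such as Hspa5 (0.06) lie close to 0.

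Against HF1h, 222 genes were higher at HF3h (1.22%) and 252 lower (1.39%), of which 20 (0.11%) and 13 (0.0715%) by at least 2-fold. Among the genes modulated at HF3h against the fasting condition, 39 of the 59 rises were higher at HF3h than at HF1h and 25 of the 29 falls were lower, and none went the other way. Paqr9 was 2.22 higher at HF3h than at HF1h on the log2 scale, Rab30 2.15, Acot1 at least 1.75, Slc2a5 1.33, Mfsd2a 1.25, Per2 1.24 and Plin2 1.14. Mt2 was 1.89 lower, Zbtb16 at least 1.41, Pck1 1.39 and Crebrf 1.25. No difference was called for Hspa1b (-0.29), Cyp1a1 (-0.00) or any of the 17 pancreatic enzymes, while all 6 stomach genes that rose were higher at HF3h than at HF1h.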

How the data were processed

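Duodenal mucosa RNA pools were hybridised to Affymetrix MOE 430 v2.0 arrays, 14 in all. The deposited values are log2 intensities: the authors subtracted background and normalized and summarised probe sets by RMA (version not given in the sources used here), a method that returns log2 values, and no source states the base. They were used without further scaling. Sequencing depth does not apply, and the number of arrays limits the precision (the standard error of the log2 fold changes had a median of 0.11). Array medians lay between 4.47 and 4.55.

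The 14 arrays entered 1 linear model, with a coefficient for each pool, in limma 3.58.1 (R 4.3.3; 7 residual and 6.4 prior degrees of freedom), and HF3h was compared with Fasting, LF3h and HF1h, with the Benjamini-Hochberg adjustment over 45037 probe sets in each comparison. Modulated means an adjusted p under 0.05 and at least 2-fold. The platform annotation gave 1 gene for 34945 probe sets, several for 932 and none for 9160, and genes (18194) use the first kind, 34741 of these matched to current symbols by Entrez ID. Simulated data held 50 probe sets changed at each size. The 2-fold changes gave 24 modulated calls, the 3-fold changes 49 and the 4-fold changes 50. Of the unchanged probe sets, 0 were called modulated and 8 passed an adjusted p under 0.05. The simulated noise was array error only, so false calls from differences between pools of mice could not occur.

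Gene lists (35 of pathways, 22 of cell types) were written from general knowledge, and 1225 of 1328 entries were measured. They are described by counts and medians, with no set test. Summed levels are log2 of the sum of linear intensities over a list. Members and lists were chosen with earlier results of these data known. Named genes are the 15 largest rises and 15 largest falls among modulated genes whose HF3h arrays both lay beyond both fasting arrays, the 4 largest called changes of each list, and Ppara, Ppargc1a, Foxo1, Creb1, Hif1a, Pck1 and Pdk4. Other genes (Leap2, Erbb3, Gclc, Slc20a1 and list members below the leading 4) were added after their values were seen. Promoters come from RefSeq (GRCm38.p6). Alternatives changed the fold minimum, filter, variance model, scaling, replicate block, probe set types and arrays. Figures were drawn in Python 3.11.15 with matplotlib 3.10.9.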

Additional observations from a re-analysis of the deposited data

Results flagged for a closer look

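Of the 30 genes with the largest rises and falls at HF3h, 15 also differed by at least 2-fold between HF3h and HF1h in limma's direct test. The 30 were chosen as extreme on the same HF3h arrays. As log2 differences, HF3h minus HF1h, those that were higher at HF3h were Gkn3 (5.06), 2310057J18Rik (3.33), Paqr9 (2.22), Rab30 (2.15), Tff2 (2.07), Gkn1 (1.86), Acot1 (1.75), Gkn2 (1.71) and Mfsd2a (1.25). Gkn3, 2310057J18Rik, Gkn1, Acot1 and Zbtb16 were under 6 in a pool, so their differences are lower bounds in size. Those that were lower at HF3h were Mt2 (-1.89), Zbtb16 (-1.41), Pck1 (-1.39), Crebrf (-1.25), Rhobtb3 (-1.09) and Ypel2 (-1.07). The 4 stomach genes among them, Gkn3, Tff2, Gkn1 and Gkn2, were also high at HF30min, whereas Paqr9, Mfsd2a and Mt2 stood within 0.18 of the fasting level there. With 2 arrays of 1 pool at each time, a difference between times and a difference between pools of mice cannot be told apart.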

How the results depend on the processing

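No biological replicate was measured, so no alternative tests how far the pools represent other mice. The count of modulated probe sets at HF3h, 177, was also 177 with an unadjusted p, an intensity trend, a robust prior or a fit of the 2 pools alone. It was 178 after quantile normalization (172 shared with the 177), 176 after median centring, 163 with low probe sets left out and 119 without probe sets that may detect several transcripts. With a fold minimum of 1.5 the counts against Fasting, LF3h and HF1h were 851, 319 and 328, and with no fold minimum 2510, 818 and 850. Against LF3h, the 88 probe sets became 45 without genes of the stomach, pancreas and adipocyte lists (an alternative added after seeing the data). The 45 include probe sets that name no single gene, 14 higher and 4 lower, which could not be matched to a list. The 88 became 58 without probe sets that may detect several transcripts. Leaving out 1 array gave 177 to 188 against Fasting, 87 to 95 against LF3h and 55 to 60 against HF1h. With the replicate number as a replicate block, 177 were modulated against Fasting, the same probe sets, 88 against LF3h and 58 against HF1h. Replicate numbers did not pair the arrays: over 21 pairs of pools, the correlation of the differences between arrays was -0.19 to 0.15.

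Over 145 named genes, 2923 of 3139 values under alternatives kept their direction and their side of the threshold, 214 lost the call, 2 gained it and none reversed. Many alternatives left out an array of another pool, changed the variance model or fitted the 2 pools alone. In those the fold change could not differ, so its direction was fixed in advance. Most losses came with an HF3h or a fasting array left out (30 to 37 genes each) or with the 2 pools fitted alone (22). List counts moved most: with an array of the 2 pools left out, the ER list had 6 to 8 higher (13 with all arrays) and the xenobiotic list 4 to 6 lower (12), and with an intensity trend 21 and 24. The cause was not tested. List medians moved by more than their spread between arrays in 122 of 454 cases.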
